A study of Homo sapiens with 12 samples.

Results

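The genes of the endoplasmic reticulum (ER) stress response and the integrated stress response (ISR) were examined in H358 cells, a human lung adenocarcinoma line. The list holds 43 genes, and its members were found on the arrays through the RefSeq accession of each probe, which a human RefSeq gene table paired with a symbol. By this rule 42 of the 43 genes had a probe, 60 probes in all, out of 41000 gene probes on the array. Of these, 41 genes with 58 probes passed the filter on dim probes and were tested, among 11592 named genes and 24331 probes tested in all. ERN1 had its only probe well above background on 1 control array and 2 of the other arrays and was not tested. ATF3 was not found by the rule and is described separately from all counts.

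RNA came from a single H358/Tet-On/SRSF2 clone, in which a Tet-responsive promoter drives the splicing factor SRSF2, so every difference below is one within that clone. The labels call 6 samples control, with no treatment, and the other 6 SRSF2 over-expression, induced with 1 µg/mL doxycycline for 24 hours. No sample of the parental line with doxycycline alone was analysed here, so the effect of the drug and that of the transgene cannot be told apart. Each sample was hybridised to a one-colour Agilent Whole Human Genome array, and the 12 arrays were spread over 3 slides, each holding 2 of either condition. The study's supplement gives 3 labelings for each condition and 2 arrays for each labeling, so arrays that share a labeling are repeat hybridisations. Unless stated otherwise, the p-values below take the 6 arrays of a condition as independent. They measure the spread between arrays, at least part of which is technical, and rest on fewer labelings than arrays. Whether the labelings came from separate cultures is not given in the sources used here. The p-values may therefore not measure variation between cultures.

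The probe for SRSF2 itself went against the labels. All signals are given on the log2 scale after subtraction of the array's 75th percentile. That of SRSF2 ran from 3.74 to 4.03 (median 3.96) on the control arrays and from 2.29 to 2.56 (median 2.51) on the others, and the conditions did not overlap. It fell by 1.46 (SE 0.06, limma adjusted p = 1.68e-09) in the samples called SRSF2 over-expression. Whether the transgene holds the stretch that this probe covers was not analysed here. The conditions are therefore named as labelled throughout, and each direction holds only as far as the labels do. The 75th percentile of the processed signal lay between 796 and 1100 on all arrays, between 54.2% and 68.0% of the gene spots were well above background, and no spot was saturated. All 6 epithelial markers (EPCAM, CDH1, KRT7, KRT8, KRT18 and KRT19) were well above background on every array. Their summed level, with the 75th percentile of an array as 1, ran from 739 to 853 on control arrays and from 403 to 723 on the others. The 403 is replicate 1 of SRSF2 over-expression, where the KRT8 and KRT18 probes used had no value and added nothing to the sum. KRT7 fell by 1.32 and KRT19 by 0.50, while EPCAM rose by 0.21 and KRT8 by 0.18 (limma adjusted p from 1.66e-09 to 0.0217). CDH1 at 0.026 and KRT18 at -0.15 had limma adjusted p of 0.754 and 0.253. The fibroblast markers COL1A2 and PDGFRB were above background on 0 arrays. Of the leukocyte markers PTPRC was so on 0 arrays, CD3E on 5 of either condition and CD68 on all 12, with a summed level from 0.652 to 0.708 and from 0.622 to 0.768. Of the endothelial markers CDH5 was so on 0 arrays, PECAM1 on all 12 and VWF on 5 control arrays and 6 others, with a summed level from 0.193 to 0.240 and from 0.173 to 0.204. PECAM1 fell by 0.46 (limma adjusted p = 0.000134) and VWF rose by 0.31 (limma adjusted p = 0.00255). The part of these markers in the results below was not tested.

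Proteins that enter the secretory pathway are folded in the ER by chaperones such as HSPA5 (BiP) and by protein disulfide isomerases, and those that fail to fold are returned to the cytosol for degradation. When unfolded proteins accumulate, the sensors ERN1 (IRE1), ATF6 and EIF2AK3 (PERK) start the unfolded protein response. ERN1 splices the mRNA of the transcription factor XBP1, and cleaved ATF6 and spliced XBP1 induce chaperone and degradation genes. EIF2AK3 phosphorylates the translation initiation factor eIF2, a step it shares with kinases that respond to amino acid shortage, viral RNA and haem shortage. This slows most translation while favouring that of ATF4, which induces genes of amino acid synthesis and uptake and the factor DDIT3 (CHOP). Both arms are much studied in lung cancer cells, where secretory load and nutrient supply vary.

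The promoters of some members carry elements that these factors are known to bind, and matches are shown for the 2 classes of gene contrasted below and for other members. Windows of 300 bases, from 250 before to 50 after each annotated start, were taken from RefSeq on build GRCh38.p14, and 40 of the 43 members had one (PDIA3, PSPH and SHMT2 were not matched). The ER stress response element, searched on both strands as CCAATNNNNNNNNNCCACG, was present for 7 members, 6 chaperones (HSPA5, HSP90B1, PDIA6, CALR, CANX and CRELD2) and XBP1. It was present for 25 of all 27305 genes with a window (0.0916%). Its second form, ATTGGNCCACG, was present for SDF2L1, HYOU1 and HERPUD1 and for 0.0696% of all genes. The core TGATGNAA of the element bound by ATF4 and its C/EBP partners was present for 6 members, ASNS, SLC3A2, CEBPG, ATF3, CHAC1 and HERPUD1, and for 4.46% of all genes. The element TGACGTGG was found for HYOU1, where it overlaps the second form, and for 0.927% of all genes. The core was present for 2 of the 7 amino acid genes with a window, and in SLC3A2 it lies 37 bases after 1 of 3 starts. No chaperone window held TGATGNAA and no window of an amino acid gene held any of the other elements. With 13 chaperones and 7 amino acid genes, elements this rare among all genes would often be absent, so these absences do not set the classes apart. A match shows letters and not a bound site. The elements were chosen as ones known to be bound in these pathways, so the shares do not test the members.

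In the 250 bases before the starts of HSPA5 and ASNS, each printed 5′ to 3′ on the strand of the gene, the capitals mark the ER stress response element of HSPA5, which begins 66 bases before the start, and the TGATGNAA core of ASNS, which begins 68 bases before it. Both genes lie on the minus strand, at chr9:125241344-125241593 and chr7:97872409-97872658. HSPA5 had 1 window and ASNS had 2, and for ASNS the start is the more upstream one.
HSPA5: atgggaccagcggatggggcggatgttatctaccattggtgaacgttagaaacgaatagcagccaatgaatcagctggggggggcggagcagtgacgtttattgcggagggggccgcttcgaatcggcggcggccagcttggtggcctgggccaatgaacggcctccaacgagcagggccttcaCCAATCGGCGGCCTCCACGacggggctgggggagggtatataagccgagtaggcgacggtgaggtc
ASNS: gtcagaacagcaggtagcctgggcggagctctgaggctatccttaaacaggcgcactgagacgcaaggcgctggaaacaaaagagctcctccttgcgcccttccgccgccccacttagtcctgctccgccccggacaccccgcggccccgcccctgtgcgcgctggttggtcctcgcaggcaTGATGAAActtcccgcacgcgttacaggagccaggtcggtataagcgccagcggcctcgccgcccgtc

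A selection of the matches in other promoters is given in short, without those of HYOU1, ATF3 and SLC3A2, a second match of HSP90B1 and the core of HERPUD1, on the strand of the gene and with the element in capitals, so that a match on the opposite strand reads as the reverse complement (CGTGG at its left end, or TTGCATCA for the core). They show that the same element stands before genes that moved in different ways below. In order, they lie at chr2:10812848-10812876 (minus strand), chr5:179698773-179698801, chr22:28800598-28800626 (minus strand), chr22:49918549-49918577, chr19:12938379-12938407, chr12:103930211-103930239, chr22:21642105-21642133, chr16:56932016-56932044, chr19:33374060-33374089 and chr15:40953251-40953280, on the plus strand where not stated.
PDIA6: ccggaCCAATGAGCCGCAGCCACGgcttg
CANX: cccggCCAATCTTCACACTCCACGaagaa
XBP1: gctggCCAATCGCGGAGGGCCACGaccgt
CRELD2: cctctCGTGGCGAACTCGGATTGGgccat
CALR: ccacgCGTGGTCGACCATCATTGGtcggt
HSP90B1: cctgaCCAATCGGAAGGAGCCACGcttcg
SDF2L1: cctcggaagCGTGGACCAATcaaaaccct
HERPUD1: cggacgccgATTGGGCCACGttgggagag
CEBPG: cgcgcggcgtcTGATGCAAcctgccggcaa
CHAC1: ctcccctgccgTTGCATCActcctgccagg

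Changes across the list were small and went both ways. Each gene was read from its tested probe with the highest mean signal, and a gene is said to have risen or fallen where limma gave an adjusted p no higher than 0.05, corrected over all 24331 probes. By this call 16 of the 41 members rose (39.0%) and 12 fell (29.3%) in the samples labelled SRSF2 over-expression, while 30.5% of all named genes rose and 30.2% fell. When arrays of the same condition and slide were averaged first (3 against 3), 8 rose and 7 fell, and 13 of the 28 calls were lost (PSPH, SLC3A2, CRELD2, DNAJB11, PDIA4, ATF6, XBP1, EDEM1, SEL1L, ATF4, CEBPB, PPP1R15A and GDF15). With normexp background correction 2 rose and 0 fell. The share that fell was near that of all genes, and no test of the list as a whole was made. No member passed 2-fold in either direction on this probe, against 2.34% of all named genes that rose and 2.92% that fell by as much. The median log2 difference over the members was 0.083, and it was -0.0040 over all named genes. Arrays of the conditions did not overlap for 18 members (43.9%), 9 higher and 9 lower, and for 43.5% of all named genes. When arrays were scaled on spike-in controls, the calls were 9 higher and 0 lower and the median of all genes moved to 0.20, with 76.6% of all calls higher against 50.3% with the main scaling. With slide 1 left out as well, the median of all genes was 0.015, with 4 members higher and 2 lower.

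**Figure D1:**
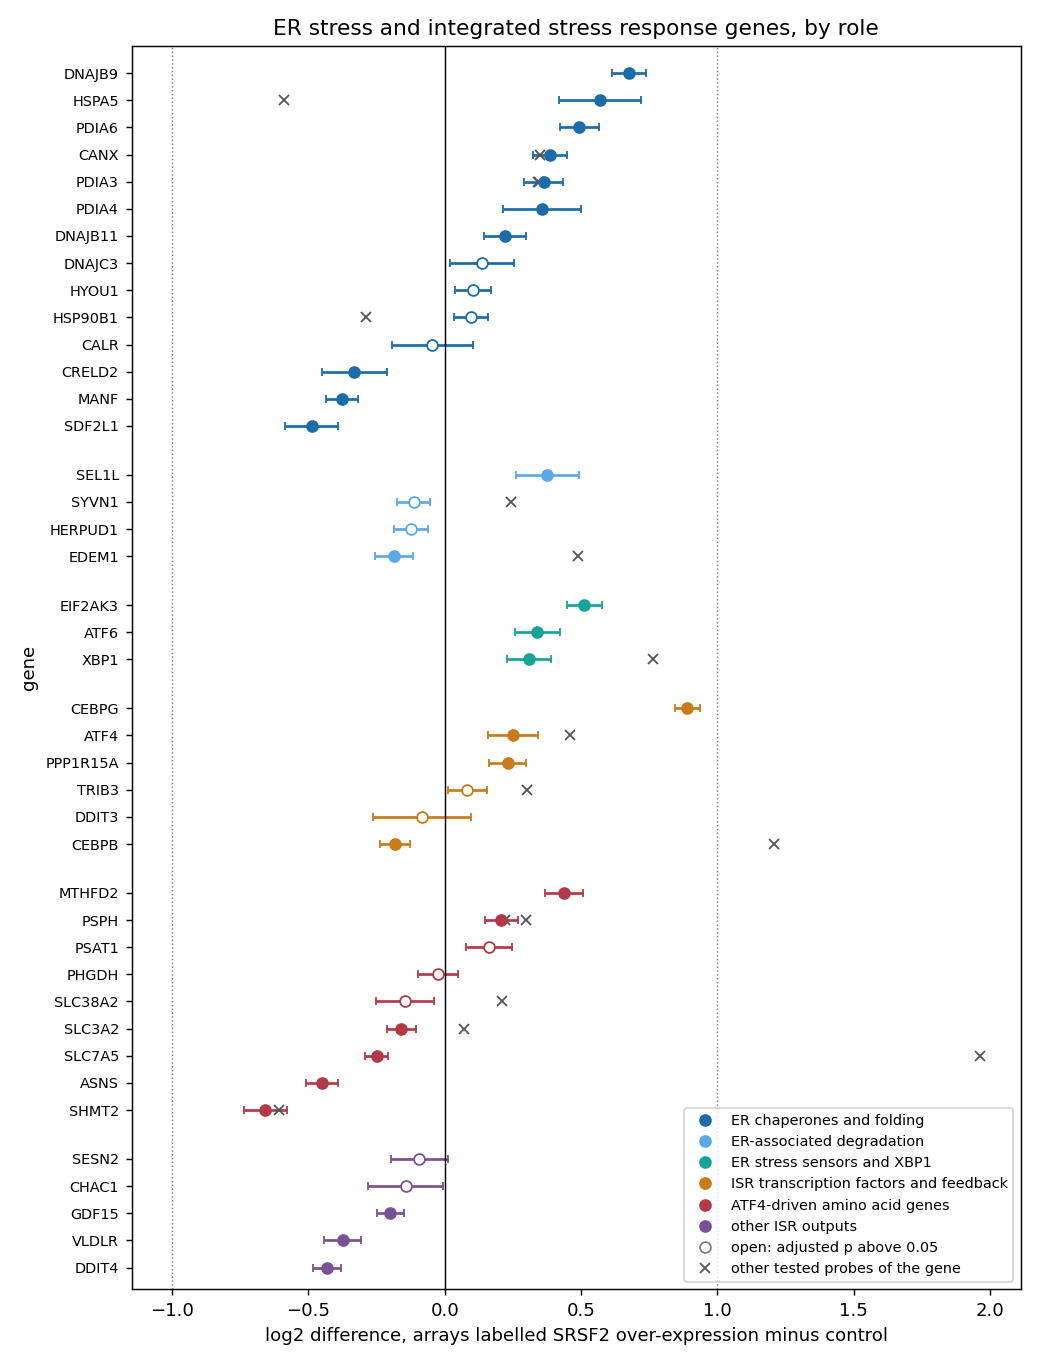
Log2 difference (labelled SRSF2 over-expression minus control) for the 41 tested members, grouped by role. Circles are the probe with the highest mean signal with its standard error (filled where the adjusted p is at most 0.05), crosses are other tested probes of the same gene, and dotted lines mark 2-fold. The largest value among the circles is CEBPG (0.89), the smallest is SHMT2 (-0.66), and crosses for HSPA5 and SLC7A5 lie on the other side of 0 from their circles. Under spike-in scaling 12 of the values below 0 turned above it.

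Among the 14 ER chaperones and folding genes, 7 rose, 3 fell and 4 did not pass the test. The largest rise was that of DNAJB9 (ERdj4), a co-chaperone of HSPA5. Its log2 signal ran from -1.15 to -0.88 (median -1.02) on the control arrays and from -0.45 to -0.20 (median -0.33) on the others. All 6 of the latter were higher than every control array, and the difference was 0.68 (SE 0.06, limma adjusted p = 1.07e-06), a 1.60-fold rise. HSPA5, the main chaperone of the ER lumen, ran from 1.00 to 1.96 (median 1.76) on the control arrays and from 2.03 to 2.53 (median 2.19) on the others. The conditions did not overlap on this probe, and the rise of 0.57 (SE 0.15, limma adjusted p = 0.00575) was 0.44 without control replicate 6, the array at 1.00. A second probe of HSPA5 fell, as given below.

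The 3 protein disulfide isomerases of the list, enzymes that form and rearrange disulfide bonds, rose. Of others and related proteins on the further list below, named after their values were seen, PDIA5 fell by 0.25 (limma adjusted p = 0.000914). TXNDC11 fell by 0.60 (limma adjusted p = 2.93e-06). P4HB at -0.21 and DNAJC10 at -0.089 did not pass (limma adjusted p = 0.0967 and 0.357). On that list as a whole 17 of 44 tested genes rose (38.6%) and 8 fell (18.2%), beside 30.5% and 30.2% of all named genes. PDIA6 ran from 3.95 to 4.08 (median 4.03) on the control arrays and from 4.28 to 4.70 (median 4.57) on the others, which is a gap with no overlap and a difference of 0.49 (SE 0.07, limma adjusted p = 7.72e-05). PDIA3 rose by 0.36 (limma adjusted p = 0.000681) and its other probes rose by 0.35 and 0.34. PDIA4 rose by 0.36 with overlapping arrays (limma adjusted p = 0.0477). The lectin chaperone CANX (calnexin), which holds glycoproteins during folding, rose by 0.39 (limma adjusted p = 0.000178), from 2.58 to 2.71 on the control arrays and from 2.88 to 3.18 on the others. A dim second probe of CANX gave 0.35 and did not pass the test (limma adjusted p = 0.233). DNAJB11 (ERdj3), another co-chaperone of HSPA5, rose by 0.22 (limma adjusted p = 0.0284).

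The genes that fell code for SDF2L1, MANF and CRELD2, small proteins of the ER. SDF2L1, which works with DNAJB11 and HSPA5, ran from 5.82 to 5.86 (median 5.83) on 4 control arrays and from 5.01 to 5.58 (median 5.36) on the 6 others. The control arrays lay close together above all the others, and SDF2L1 fell by 0.49 (SE 0.10, limma adjusted p = 0.00133). Both control arrays of slide 1 were missing for it because their spots had outlier flags, so the values of 5.36 and 5.01 from the other 2 arrays of that slide entered the fit without control values beside them. On slides 2 and 3 the differences were -0.32 and -0.50. MANF, a secreted protein that binds HSPA5 and protects cells under ER stress, ran from 6.18 to 6.30 (median 6.22) on 5 control arrays and from 5.71 to 5.97 (median 5.88) on the others, again without overlap. It fell by 0.38 (SE 0.06, limma adjusted p = 0.000146). CRELD2 fell by 0.33 with overlapping arrays (limma adjusted p = 0.0294).
HSP90B1 (GRP94) at 0.096 with 1 array missing, DNAJC3 at 0.14, HYOU1 at 0.10 and CALR (calreticulin) at -0.045 did not pass the test, and a second probe of HSP90B1 at -0.29 did not either. With slide 3 left out, SDF2L1, CRELD2, DNAJB11 and PDIA4 no longer passed (limma adjusted p from 0.0531 to 0.313), and MANF was lost with quantile normalization (limma adjusted p = 0.115).

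**Figure D2:**
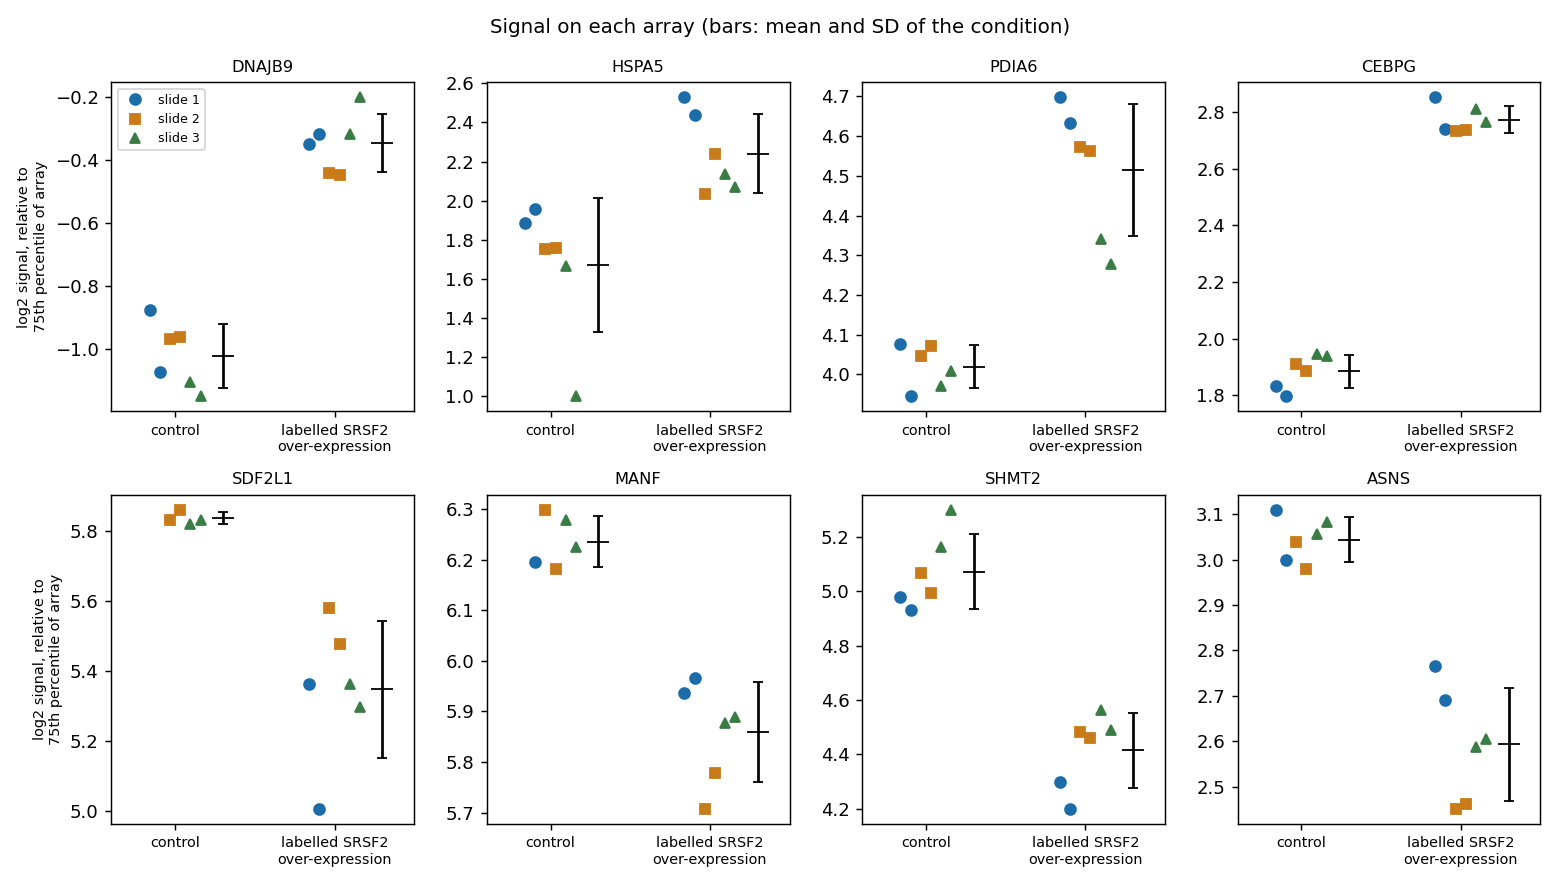
Log2 signal on each of the 12 arrays, with the array's 75th percentile at 0, for 8 genes by their probe with the highest mean signal. Colours and shapes mark the slide, and bars are the mean and SD of a condition. In all 8 panels the conditions do not overlap, the upper row (DNAJB9, HSPA5, PDIA6, CEBPG) is higher and the lower row (SDF2L1, MANF, SHMT2, ASNS) is lower in SRSF2 over-expression as labelled, and 1 control array of HSPA5 on slide 3 stands at 1.00. The lower row kept its sign under spike-in scaling but no longer passed the test there.

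Of the 4 genes of ER-associated degradation, 1 rose and 1 fell, where 30.5% of all named genes rose and 30.2% fell. Counts over 4 genes do not set this group apart from all genes. SEL1L, the scaffold of the ER membrane ligase complex, ran from -1.55 to -0.85 on the control arrays and from -0.91 to -0.48 on the others. These ranges overlapped, and it rose by 0.38 (SE 0.12, limma adjusted p = 0.0142). EDEM1, a lectin that hands misfolded glycoproteins to degradation, fell by 0.19 (limma adjusted p = 0.0349), with a dim second probe at 0.49 that did not pass (limma adjusted p = 0.464). HERPUD1, which organises the ligase complex, was at -0.12 and did not pass (limma adjusted p = 0.104), but did so with the replicate number as a block (limma adjusted p = 0.041). The ligase SYVN1 (HRD1) was at -0.11 and did not pass, while its second probe rose by 0.24 (limma adjusted p = 0.00452). SEL1L and EDEM1 were both lost with slide 3 left out (limma adjusted p = 0.0561 and 0.061).

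All 3 tested genes among the sensors and XBP1 rose, as did 30.5% of all named genes. EIF2AK3, the kinase PERK, ran from -2.39 to -2.22 (median -2.28) on the control arrays and from -1.96 to -1.62 (median -1.76) on the others. The arrays did not overlap, and the rise of 0.51 (SE 0.07, limma adjusted p = 2.04e-05) was 0.46, 0.37 and 0.71 on slides 1, 2 and 3. XBP1 ran from 3.77 to 3.94 (median 3.85) on 5 control arrays and from 3.99 to 4.40 (median 4.11) on the others, also without overlap. It rose by 0.31 (SE 0.08, limma adjusted p = 0.00607), and a second probe rose by 0.76 (SE 0.13, limma adjusted p = 0.000235). These probes count XBP1 mRNA and do not tell its spliced form from the unspliced one. ATF6 rose by 0.34 with overlapping arrays (limma adjusted p = 0.00323), and its call was lost with slide 1 left out (limma adjusted p = 0.0637).

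On the probe with the highest mean signal of each gene, the transcription factors and feedback genes of the ISR held the largest change of the list. A second probe of SLC7A5, in another group, moved further, as given below. CEBPG, a C/EBP protein that pairs with ATF4, ran from 1.80 to 1.95 (median 1.90) on the control arrays and from 2.73 to 2.85 (median 2.75) on the others. Both conditions were tight and far apart, and the rise of 0.89 (SE 0.05, limma adjusted p = 6.19e-09), 1.85-fold, was 0.98, 0.84 and 0.85 on slides 1, 2 and 3. CEBPG and DNAJB9 were the only members that kept their call under all 21 alternatives tried. ATF4 itself ran from 5.88 to 6.32 (median 6.17) on the control arrays and from 6.11 to 6.55 (median 6.45) on 5 of the others, which overlap. It rose by 0.25 (SE 0.09, limma adjusted p = 0.036), which did not pass with the replicate number as a block (limma adjusted p = 0.0539) and was 0.14 with outlier spots kept (limma adjusted p = 0.379). Its second probe ran from 3.34 to 3.47 on the control arrays and from 3.79 to 4.04 on the others, without overlap, and rose by 0.46 (SE 0.05, limma adjusted p = 7.72e-06). ATF4 is controlled mainly in translation, which arrays do not measure.

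PPP1R15A (GADD34), which directs the phosphatase that reverses eIF2 phosphorylation, rose by 0.23, with 5 of the 6 arrays of SRSF2 over-expression measured (limma adjusted p = 0.0118). CEBPB fell by 0.18 (limma adjusted p = 0.0124), and its second probe gave 1.21 without passing the test (limma adjusted p = 0.195). That value came from control replicate 2, at -5.85 where the other control arrays ran from -0.82 to -0.64, and without that array it was 0.36. TRIB3, an inhibitor of ATF4 that ATF4 and DDIT3 induce, was at 0.083 and did not pass, with a second probe that rose by 0.30 (limma adjusted p = 0.026). DDIT3 (CHOP), the factor linked to cell death under lasting stress, ran from -3.60 to -2.38 (median -2.52) on the control arrays and from -2.92 to -2.60 (median -2.76) on the others. The conditions overlapped and its difference of -0.083 did not pass (limma adjusted p = 0.715). Without control replicate 2, left out after its value was seen to stand apart, the difference was -0.27 (limma adjusted p = 0.0064). That choice narrows the control spread, so this p-value is not an independent test.

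ATF3, a stress-induced partner of these factors, has an accession that the gene table does not hold. A supplementary list of the study, chosen for deregulation on these arrays, names 1 probe as ATF3, and a second probe carries the same accession. The first, A_24_P33895, was well above background on 2 of 6 control arrays and 5 of 6 others, and its log2 signal was -5.02 ± 0.35 (SD, n = 6) and -3.91 ± 0.23 (SD, n = 6). The second, A_23_P34915, was well above background on all arrays and ran from -0.15 to -0.05 on the control arrays and from 0.30 to 0.58 on the others. The conditions did not overlap on either probe, and the second differed by 0.52. The first passed the filter on dim probes only through the arrays where it is high. Since the list chose the name by its change, these values are a description without a test and count for nothing above.

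Among the 9 ATF4-driven amino acid genes, 4 fell (44.4%), 2 rose (22.2%) and 3 did not pass the test. Over all named genes 30.2% fell and 30.5% rose. SHMT2, the mitochondrial enzyme that turns serine into glycine, ran from 4.93 to 5.30 (median 5.03) on the control arrays and from 4.20 to 4.56 (median 4.47) on the others. All control arrays were higher, and SHMT2 fell by 0.66 (SE 0.08, limma adjusted p = 1.35e-05), which a second probe matched with a fall of 0.61. ASNS (asparagine synthetase), a standard readout of ATF4, ran from 2.98 to 3.11 (median 3.05) on the control arrays and from 2.45 to 2.77 (median 2.60) on the others. The ranges did not overlap, and ASNS fell by 0.45 (SE 0.06, limma adjusted p = 3.26e-05). The 2 chains of the large neutral amino acid transporter, SLC7A5 (LAT1) and SLC3A2 (CD98 heavy chain), fell by 0.25 (limma adjusted p = 0.000263) and 0.16 (limma adjusted p = 0.0218) on the probes used. The second probe of SLC7A5 rose by 1.96 (limma adjusted p = 6.79e-09), so its place among the 4 genes that fell depends on the probe. The second probe of SLC3A2 was at 0.072 and did not pass (limma adjusted p = 0.139).

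MTHFD2, the mitochondrial folate enzyme that acts after SHMT2, went up. It ran from 3.88 to 3.94 (median 3.90) on the control arrays and from 4.19 to 4.57 (median 4.28) on the others, without overlap, and rose by 0.44 (SE 0.07, limma adjusted p = 0.000164). The 3 enzymes of serine synthesis did not move as 1 unit. PSPH, the last enzyme of that path, rose by 0.21 (limma adjusted p = 0.0105), and of its other probes 1 rose by 0.22 and 1 gave 0.30 without passing. PSAT1 was at 0.16 (limma adjusted p = 0.115) and PHGDH, the first enzyme, at -0.025 (limma adjusted p = 0.794). The transporter SLC38A2 was at -0.15 on the probe used (limma adjusted p = 0.265), and its other probe rose by 0.21 (limma adjusted p = 0.00772). SLC3A2 and PSPH were lost with slide 3 left out (limma adjusted p = 0.0995 and 0.0718).

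The 5 other outputs of the ISR were all below 0 and 3 of them fell (60.0%, beside 30.2% of all named genes). For CHAC1, GDF15 and SESN2 this direction turned above 0 under spike-in scaling. DDIT4 (REDD1), an inhibitor of mTORC1, ran from 1.69 to 1.83 (median 1.78) on the control arrays and from 1.20 to 1.43 (median 1.36) on the others. The conditions did not overlap, and DDIT4 fell by 0.43 (SE 0.05, limma adjusted p = 1.1e-05). VLDLR, a lipoprotein receptor, ran from -1.28 to -1.05 and from -1.66 to -1.34, again without overlap, and fell by 0.37 (SE 0.07, limma adjusted p = 0.000375). The secreted factor GDF15 fell by 0.20 (SE 0.05, limma adjusted p = 0.00414), with all control arrays higher. CHAC1, which breaks down glutathione, was at -0.14 and did not pass (limma adjusted p = 0.397), but did so with the replicate number as a block (limma adjusted p = 0.045). SESN2, a leucine sensor, was at -0.093 (limma adjusted p = 0.468).

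For some members the probes of 1 gene moved in opposite directions. HSPA5 and SLC7A5 each had a probe that rose and a probe that fell, so 2 of the 15 members with several tested probes (13.3%) were split in this way, as were 9.57% of the 3741 named genes with several. The second probe of HSPA5, which carries the same accession, ran from 0.88 to 1.14 (median 1.00) on the control arrays and from 0.29 to 0.58 (median 0.43) on the others. It fell by 0.59 (SE 0.07, limma adjusted p = 6.51e-06), by about as much as the other probe rose, and on slides 1, 2 and 3 the differences were -0.51, -0.69 and -0.57. The second probe of SLC7A5 ran from -0.10 to 0.08 (median -0.05) on the control arrays and from 1.73 to 2.28 (median 1.84) on the others. Its rise of 1.96 (SE 0.10, limma adjusted p = 6.79e-09), 3.90-fold, was the only call past 2-fold among the 58 tested probes found by the rule, while the other probe of SLC7A5 fell by 0.25. Which part of each transcript a probe covers was not analysed here, so the direction of HSPA5 and SLC7A5 as genes is not settled by these arrays.

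**Figure D3:**
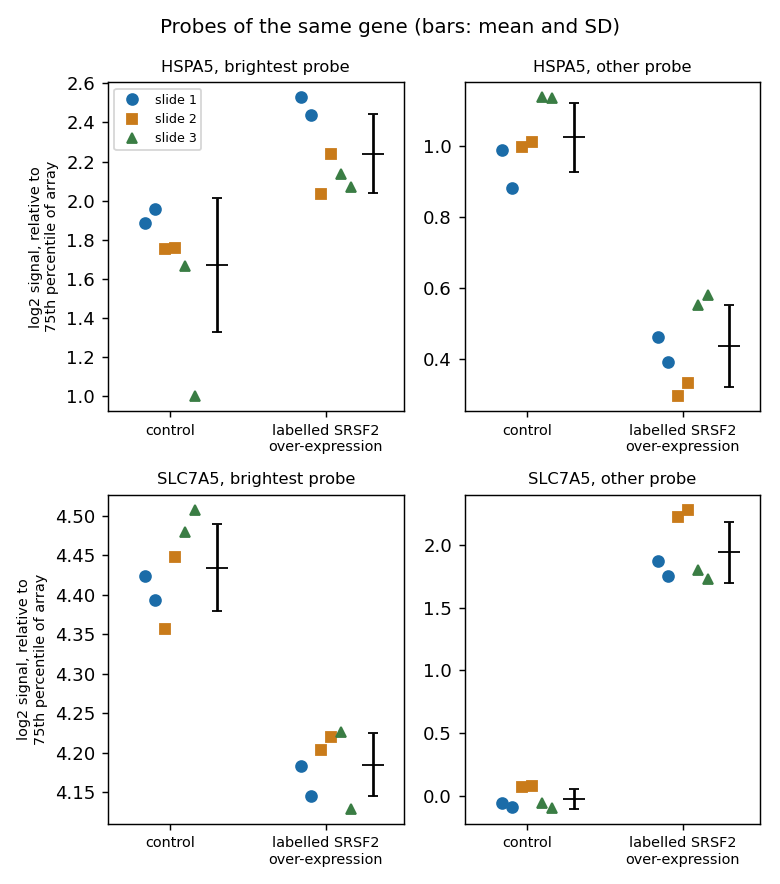
Log2 signal on each array for the probe with the highest mean signal (left) and the other probe (right) of HSPA5 and SLC7A5, with the slide as colour and shape and bars for mean and SD. The conditions do not overlap in any of the 4 panels, and the probes of each gene move in opposite directions, by 0.57 and -0.59 for HSPA5 and by -0.25 and 1.96 for SLC7A5. Under spike-in scaling the signs were the same, but neither of the 2 falling probes passed the test.

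The ER chaperone genes and the amino acid genes were then set side by side. The median log2 difference was 0.18 over the 14 chaperone genes and -0.15 over the 9 amino acid genes. The latter is the value of SLC38A2, which did not pass the test and whose other probe rose. The amino acid median was above 0 under spike-in scaling (0.062), normexp background correction (0.061) and the mean of all probes of a gene (0.033). Relative to the median of all genes, the amino acid median was -0.14 in the main scaling and under spike-in scaling, but 0.11 with normexp and 0.020 with the mean of all probes. By slide, the chaperone median was 0.31 on slide 1, where 13 genes had a value in both conditions, 0.19 on slide 2 and 0.16 on slide 3. The amino acid median was 0.020, -0.093 and -0.20 on the same slides. In both classes genes moved each way, since SDF2L1, MANF and CRELD2 fell among the chaperones and MTHFD2 and PSPH rose among the amino acid genes. The members with an ER stress response element were split as well, with PDIA6, CANX, XBP1 and, on the probe used alone, HSPA5 higher, CRELD2 lower, and HSP90B1 and CALR not passing the test. Of those with the TGATGNAA core, CEBPG rose, ASNS and SLC3A2 fell, and CHAC1 and HERPUD1 did not pass.

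**Figure D4:**
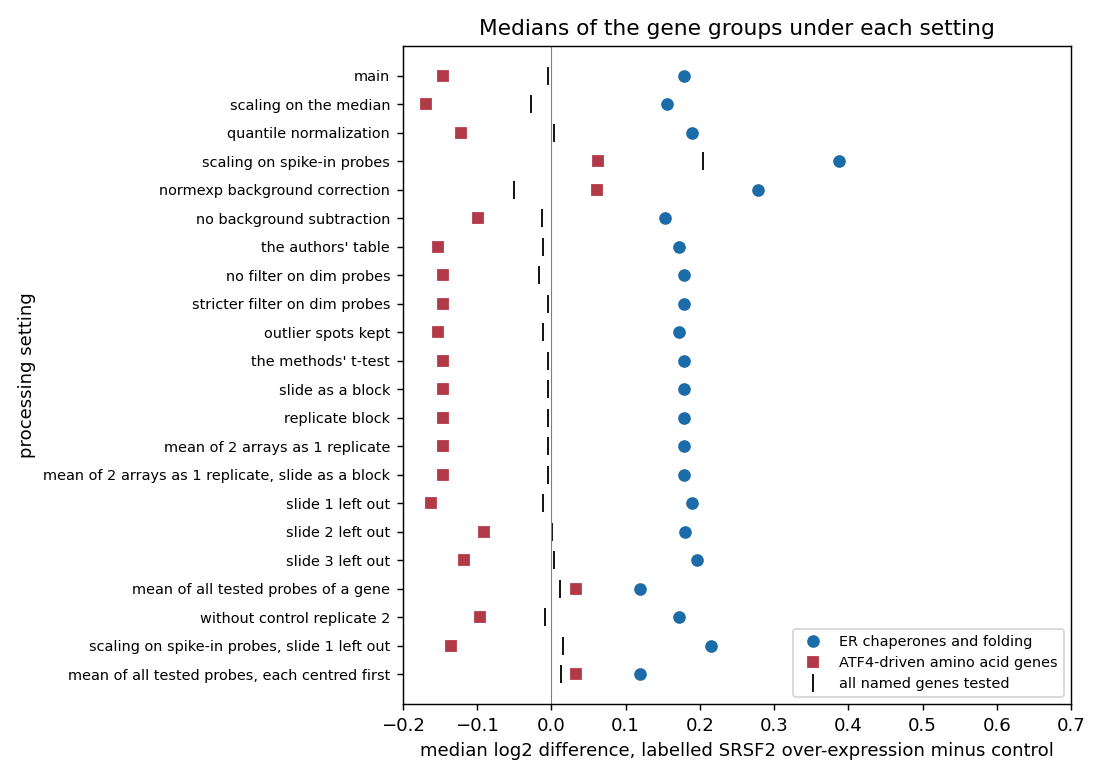
Median log2 difference over the ER chaperone genes (circles), the amino acid genes (squares) and all named genes tested (ticks) under the main processing and each alternative. The chaperone median lay above 0 and above the amino acid median in every row, from 0.12 to 0.39. The amino acid median lay below 0 except with spike-in scaling of all slides, normexp background correction and both means of all tested probes.

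Further genes of the same pathways were counted in the same way. Of 47 further ER folding and transport genes, 44 were tested, of which 17 rose (38.6%) and 8 fell (18.2%), with a median log2 difference of 0.054. Over all named genes 30.5% rose and 30.2% fell. Only 3 of the further ER genes passed 2-fold, all upward, and none is a member. LMAN1, a cargo receptor for glycoproteins leaving the ER, ran from -0.64 to -0.31 on the control arrays and from 0.54 to 0.95 on the others and rose by 1.23 (SE 0.08, limma adjusted p = 4.03e-08). MBTPS2, the protease that completes the cleavage of ATF6, rose by 1.21 (SE 0.08, limma adjusted p = 5.51e-08), from -2.32 to -1.95 on the control arrays and from -1.09 to -0.72 on the others. FKBP11, a prolyl isomerase of secretory cells, rose by 1.12 (SE 0.07, limma adjusted p = 7.04e-08), from 0.21 to 0.54 and from 1.35 to 1.69. The conditions did not overlap for any of the 3. MBTPS1 of the same list, named after its value was seen, fell by 0.51 (limma adjusted p = 0.000166). Its other tested probes gave -0.55 (limma adjusted p = 2.13e-05) and -0.073 (limma adjusted p = 0.633). Of 33 further ISR genes, 23 were tested, of which 6 rose (26.1%), 5 fell (21.7%) and 0 passed 2-fold, with a median of -0.0061. At 2-fold, the 3 rises among the 44 tested ER genes stand beside 271 among 11592 named genes (2.34%).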

How the data were processed

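Expression was measured on 12 one-colour arrays, 6 labelled control and 6 labelled SRSF2 over-expression. The authors deposited the output of Feature Extraction 10.7.3.1, with the processed (background-subtracted) intensity, the median intensity and the flags of every spot. They also deposited a table of log2 values. After removal of 1 constant for each array and 1 for each probe, 100.0% of its values lay within 0.01 of the log2 processed intensity; its normalization is not given in the sources used here.

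Control spots and outlier spots were left out, log2 values were averaged over the spots of a probe, and the 75th percentile of the gene probes of each array was subtracted. A probe was fitted if no more than 25% of its values were missing and if 5 or more of the 6 arrays of either condition had it well above background. The fit was made with lmFit and eBayes of limma 3.58.1 (R 4.3.3), without covariates, and p-values were adjusted by Benjamini-Hochberg. Tables and figures were made with Python 3.11.15, pandas 2.3.3, numpy 2.4.6 and matplotlib 3.10.9. Of 25868 probes with a RefSeq accession, 23958 were named through the GRCh38.p14 gene table and 17042 gene probes had no name. The files' annotation is of another build, so no gene coordinates are given. Named in the text are SRSF2, all members by their tested probe with the highest mean signal, other tested probes of a member where direction or call differ, and up to 10 genes of each further list past 2-fold. Members, lists and rules were chosen with earlier results of these data known. The promoter elements, ATF3 and, of the further ER list, PDIA5, TXNDC11, P4HB, DNAJC10 and MBTPS1 were added after the values were seen.

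Same-numbered arrays deviated together from their condition means (correlations from 0.28 to 0.64 over 6 pairs), as did arrays of different number on the same slide (from 0.33 to 0.65), while those on different slides did not (from -0.48 to -0.047). The alternatives were other scalings (median, quantile, 7 spike-in probes), normexp with an offset of 50 and no background subtraction (both on the median spot intensity, as no mean is among the columns used), the authors' table, no filter or a stricter one (9 of 12 arrays), the methods' t-test, a block for slide or for replicate number, inclusion of outlier spots, the mean of 2 arrays with and without slide as a block, each slide left out, 1.5-fold and the mean of all probes of a gene, also with each probe centred first. On simulated data for the comparison of 6 arrays with 6, over 23740 probes, limma recovered 191 of 200 changed probes and called 12 others. The simulated arrays were drawn independently and the changes were 2-fold or more. The real arrays deviated together within a slide, and no member passed 2-fold on the probe used. The simulation therefore checks the code and does not give the error rate or power for the calls above. The number of arrays limits the precision.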

Additional observations from a re-analysis of the deposited data

Results flagged for a closer look

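In 9 of 122 groups of arrays looked at, 1 array stood apart from the others of its condition by Dixon's test, which chance alone gives for about 1 group in 20. All 9 were control arrays, and 5 of them were control replicate 2. Values are log2 signals with the array's 75th percentile at 0. CEBPB on its second probe stood at -5.85 on control replicate 2, where the others ran from -0.82 to -0.64, and the difference between conditions was 0.36 without it and 1.21 with it. DDIT3 stood at -3.60 on the same array, and the difference was -0.27 without it and -0.083 with it. The dim second probe of CANX stood at -5.05 there, and the difference was 0.096 without it and 0.35 with it. The second probe of ATF4 at 3.34 and a second probe of PSPH at 1.25 were the other values of control replicate 2, with differences of 0.44 and 0.27 without it. HSPA5 stood at 1.00 on control replicate 6 (difference 0.44 without it), and ATF4 on its first probe at 5.88 on control replicate 1 (0.20 without it). On control replicate 3, PSAT1 stood at 2.39 and CANX at 2.58, with differences of 0.13 and 0.37 without that array.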

How the results depend on the processing

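With 21 alternatives in place of the main processing, the chaperone median stayed above 0 in all and 26 of the 28 member calls were lost or turned in at least 1. Scaling on spike-in probes, whose shift stood at 0.60 and 0.61 for the control arrays of slide 1 and from -0.39 to 0.075 for all others, gave 9 members higher and 0 lower, and 1 higher by 2-fold. Over all named genes it gave 2178 higher and 665 lower (559 and 170 by 2-fold), with a chaperone median of 0.39 and an amino acid median of 0.062. It turned PHGDH (0.18), SLC38A2 (0.062), SLC3A2 (0.050), CALR (0.16), EDEM1 (0.021), HERPUD1 (0.085), SYVN1 (0.094), CEBPB (0.025), DDIT3 (0.13), CHAC1 (0.065), GDF15 (0.0091) and SESN2 (0.12), none of which passed the test there. With slide 1 left out (chosen after the data were seen) it gave 4 members higher and 2 lower, and 1327 and 1525 of all genes. Normexp gave 2 members higher and 0 lower, 802 and 839 of all genes (58 and 100 by 2-fold), medians of 0.28 and 0.061 and a difference of medians of 0.22, against 0.32 in the main processing. It turned PHGDH (0.093), SLC38A2 (0.033), SLC3A2 (0.061), CALR (0.19), HERPUD1 (0.046), SYVN1 (0.025, and its second probe to -0.14), and the dim probes of CANX (-0.22) and ATF3 (-0.10). Without background subtraction 134 and 210 of all genes passed 2-fold, the difference of medians was 0.25 and CALR was at 0.032. With the mean of 2 arrays as 1 replicate 8 members were higher and 7 lower, and 2269 of all genes were higher. With slide 1 left out, PSPH, ATF6 and PPP1R15A lost their calls. With slide 2 left out, CRELD2, DNAJB11, EDEM1, ATF4 and CEBPB lost theirs, the difference of medians was 0.27 and DDIT3 was at 0.035. With slide 3 left out, 10 of the 28 calls were lost (PSPH, SLC3A2, CRELD2, DNAJB11, PDIA4, SDF2L1, EDEM1, SEL1L, ATF4 and CEBPB) and PHGDH (0.059), DDIT3 (0.060) and TRIB3 (-0.0051) turned. With the mean of all probes of a gene the amino acid median was 0.033 and the difference of medians 0.087. HSPA5 (-0.010), HSP90B1 (-0.52), SYVN1 (0.064), EDEM1 (0.15), CEBPB (0.51), SLC38A2 (0.033) and SLC7A5 (0.86, which passed the test) then turned. The value of HSP90B1 arises from 1 array that lacks its brighter probe, and centring each probe before averaging, an alternative added with the data in view, gave -0.11 (limma adjusted p = 0.431), with 16 members higher and 8 lower and the same medians. At 1.5-fold 2 members were higher and 1 lower, and 1131 and 1283 of all genes. Without control replicate 2 (chosen after the data were seen) 14 members were higher and 13 lower, and the difference of medians was 0.27. The replicate block gave 15 members higher and 14 lower, losing ATF4 alone of the 28 calls, and the slide block gave 20 and 16 and lost 0. The cause of these moves was not tested. Dim probes, such as those of DDIT3 and ERN1, are limited by signal over background.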
